A study of Homo sapiens with 18 samples.

Results

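The response of IGFBP6-depleted breast cancer cells to erastin was measured by RNA sequencing of bulk samples: 3 libraries of cells treated with erastin were set against 3 libraries of vehicle-treated cells of the same line, 6 of the 18 libraries of the series. The members were chosen by their labels alone (line sh-IGFBP6, treatment erastin or control). The cells were MDA-MB-231, an established human line of triple-negative breast cancer, depleted of IGFBP6 with a short hairpin (the line sh-IGFBP6). IGFBP6 encodes a secreted binding protein of the insulin-like growth factors that prefers IGF-II. All cells were plated at 800000 per well 24 h before treatment, and the treatment lasted 24 h. The erastin group received 2.5 µM erastin in DMSO with 0.5% ethanol, and the control group received 0.5% DMSO and 0.5% ethanol. The comparison most like this one used the same treatments in the same cells with a hairpin against luciferase (sh-LUC, 3 and 3 libraries, listed as genotype WT in the labels), and the remaining 6 libraries were treated with docosahexaenoic acid (DHA) and entered only the shared estimate of spread. The labels do not give the number of hairpins or clones behind either line and do not state whether replicates were separate cultures. The p-values therefore measure only how far these samples spread, and that spread may be technical.

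Erastin blocks system xc-, the antiporter made of SLC7A11 and SLC3A2 that brings cystine into the cell in exchange for glutamate. Cystine supplies the cysteine of glutathione, and the enzyme GPX4 uses glutathione to reduce peroxides of membrane lipids. When that reduction fails, iron-dependent lipid peroxidation kills the cell, a form of death called ferroptosis. Shortage of an amino acid is known to raise translation of the transcription factor ATF4, oxidative stress releases NRF2 from KEAP1, and misfolded proteins release HSF1, each with a known set of target genes.

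The libraries were of unequal depth. Vehicle libraries held 2994716, 4660268 and 3678631 gene counts, and erastin libraries 7153762, 4497420 and 609936. Erastin replicate 3 stood apart: MT-RNR1 and MT-RNR2, the ribosomal RNAs of mitochondria, took 54.38% of its counts, while the remaining 17 libraries gave them 0.03487% to 0.5043%. With these 2 genes left out of all libraries, 278278 counts remained in it, 9763 of the 15294 genes tested had fewer than 10 counts there, and a single count was worth 3.964 CPM (counts scaled to a library of 1000000). Its log CPM correlated at 0.9013 and 0.8975 with erastin replicates 1 and 2, which correlated at 0.9900 with each other (correlations across genes, which are not independent replicates). Of genes called at least 2-fold up without this library and with at least 10 counts to be foreseen in it, 100 of 100 lay above every vehicle library in it, and 38 of 38 falls lay below; the rest of the 438 rises and 200 falls had too few counts for this check. Results are given with all 3 erastin libraries, and without replicate 3 where it mattered.

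**Figure D1:**
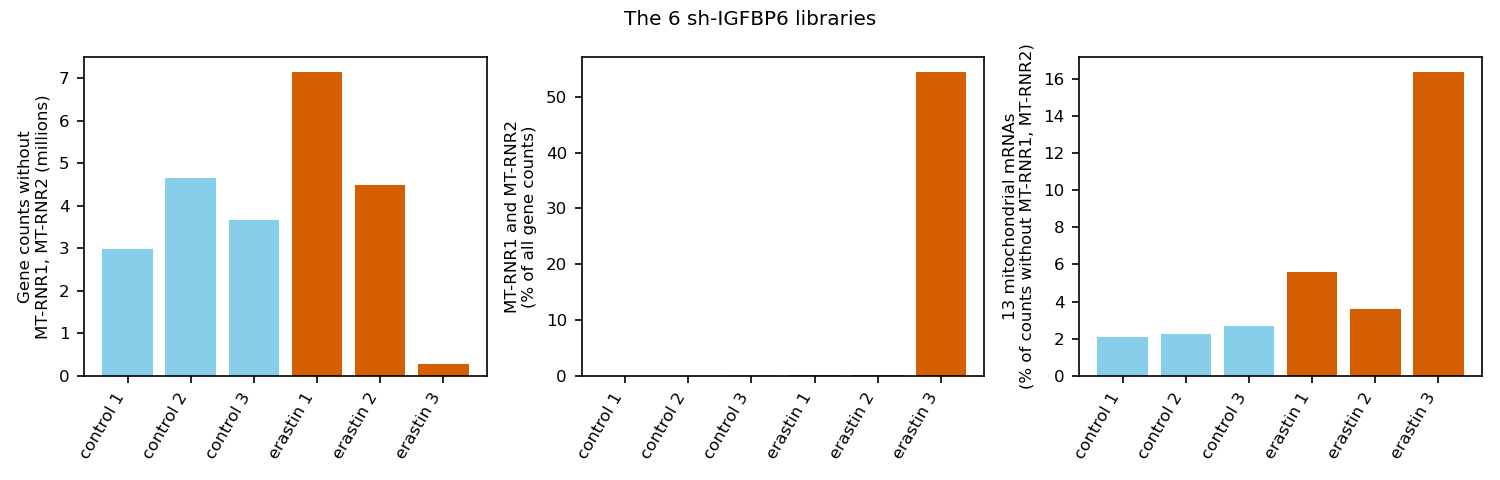
Bars give, for each sh-IGFBP6 library (blue, control; orange, erastin), gene counts without MT-RNR1 and MT-RNR2 (axis in units of 1000000), the share of counts on MT-RNR1 and MT-RNR2, and the share of the 13 mitochondrial messenger RNAs among the other counts. Erastin replicate 3 had 278278 usable counts, 54.38% mitochondrial ribosomal RNA and 16.34% mitochondrial messenger RNA.

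IGFBP6 itself followed the labels. It stood at 0.6283, 1.405 and 2.305 CPM in the sh-IGFBP6 vehicle libraries and at 21.96, 21.15 and 18.16 CPM in the sh-LUC vehicle libraries, with no overlap. With erastin the sh-IGFBP6 libraries had 0.5627, 0.4375 and 3.964 CPM, the last from a single count, and the change did not pass the test (log2 fold change -1.31 ± 0.59 SE, adjusted p = 0.0881); it did pass without control replicate 1 (-1.58, adjusted p = 0.0446). The 8 markers of the mesenchymal triple-negative type summed to 5650 to 5704 CPM in vehicle and 5637 to 5946 CPM in erastin libraries. Leukocyte markers summed to 3.613 to 5.027 and 4.642 to 11.89 CPM, with CD3E, CD3D, MS4A1 and LYZ at 0 in all 6 libraries, and fibroblast and endothelial markers to 13.58 to 18.22 and 3.964 to 17.02 CPM, with COL1A2 at 0. Luminal epithelial markers summed to 891.7 to 941.5 and 729.4 to 934.1 CPM. Of the latter, CLDN4, a tight junction claudin, rose from 50.27, 41.75 and 40.98 to 76.52, 101.1 and 75.32 CPM (log2 0.99, adjusted p = 1.1e-16), while ERBB2 (-0.33) and the keratin KRT19 (-0.26) fell. The KRT19 call was lost without control replicate 2 (-0.20, adjusted p = 0.0734) or erastin replicate 1 (-0.21, adjusted p = 0.114). In bulk RNA, fewer cells with a transcript and less of it per cell cannot be told apart.

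Erastin changed 4402 of the 15294 genes tested at an adjusted p below 0.05, or 28.8%. Rises numbered 2228 (14.6% of genes tested) and falls 2174 (14.2%), and scaling by library size alone turned the share of rises among the calls from 50.61% to 32.85%. At least 2-fold changes were fewer: 447 rises (2.92%) and 186 falls (1.22%). Groups did not overlap for 2579 genes with every erastin library above every vehicle library (16.9%) and for 2985 genes with every erastin library below (19.5%). Erastin replicate 3 had a count for 12718 of the 15294 genes tested. A gene at 0 there lies below any vehicle library with counts, so these shares cannot be set against each other. The median log2 fold change of all genes was 0.00. Without erastin replicate 3, 4364 genes were called, of which 4231 were also called with it, all in the same direction. In sh-LUC cells erastin raised 3250 genes (21.3%) and lowered 3734 (24.4%). Calls shared by both lines numbered 2695, which is 61.22% of the sh-IGFBP6 calls and 38.59% of the sh-LUC calls: 1131 rose in both, 1125 fell in both, 231 rose in sh-IGFBP6 and fell in sh-LUC, and 208 did the reverse.

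The response of sh-IGFBP6 cells was led upward by stress and immediate early genes and downward by histone genes. Where the groups did not overlap and the 6 libraries averaged 5 CPM or more, the 10 leading rises were HMOX1, ARC, NR4A1, FOS, DUSP8, EGR1, RHOB, HSPA1A, CDKN1C and ZFP36, with log2 fold changes from 6.26 down to 3.51. By the same rule the leading falls were H3C12, H2AC4, H2BC11, PIF1, H3C13, H2BC14, H2BC17, H2AC13, NEURL1B and H3C1, from -2.87 to -2.00. Of these 10, 8 encode core histones, PIF1 encodes a DNA helicase and NEURL1B a ubiquitin ligase that acts on Notch ligands.

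**Figure D2:**
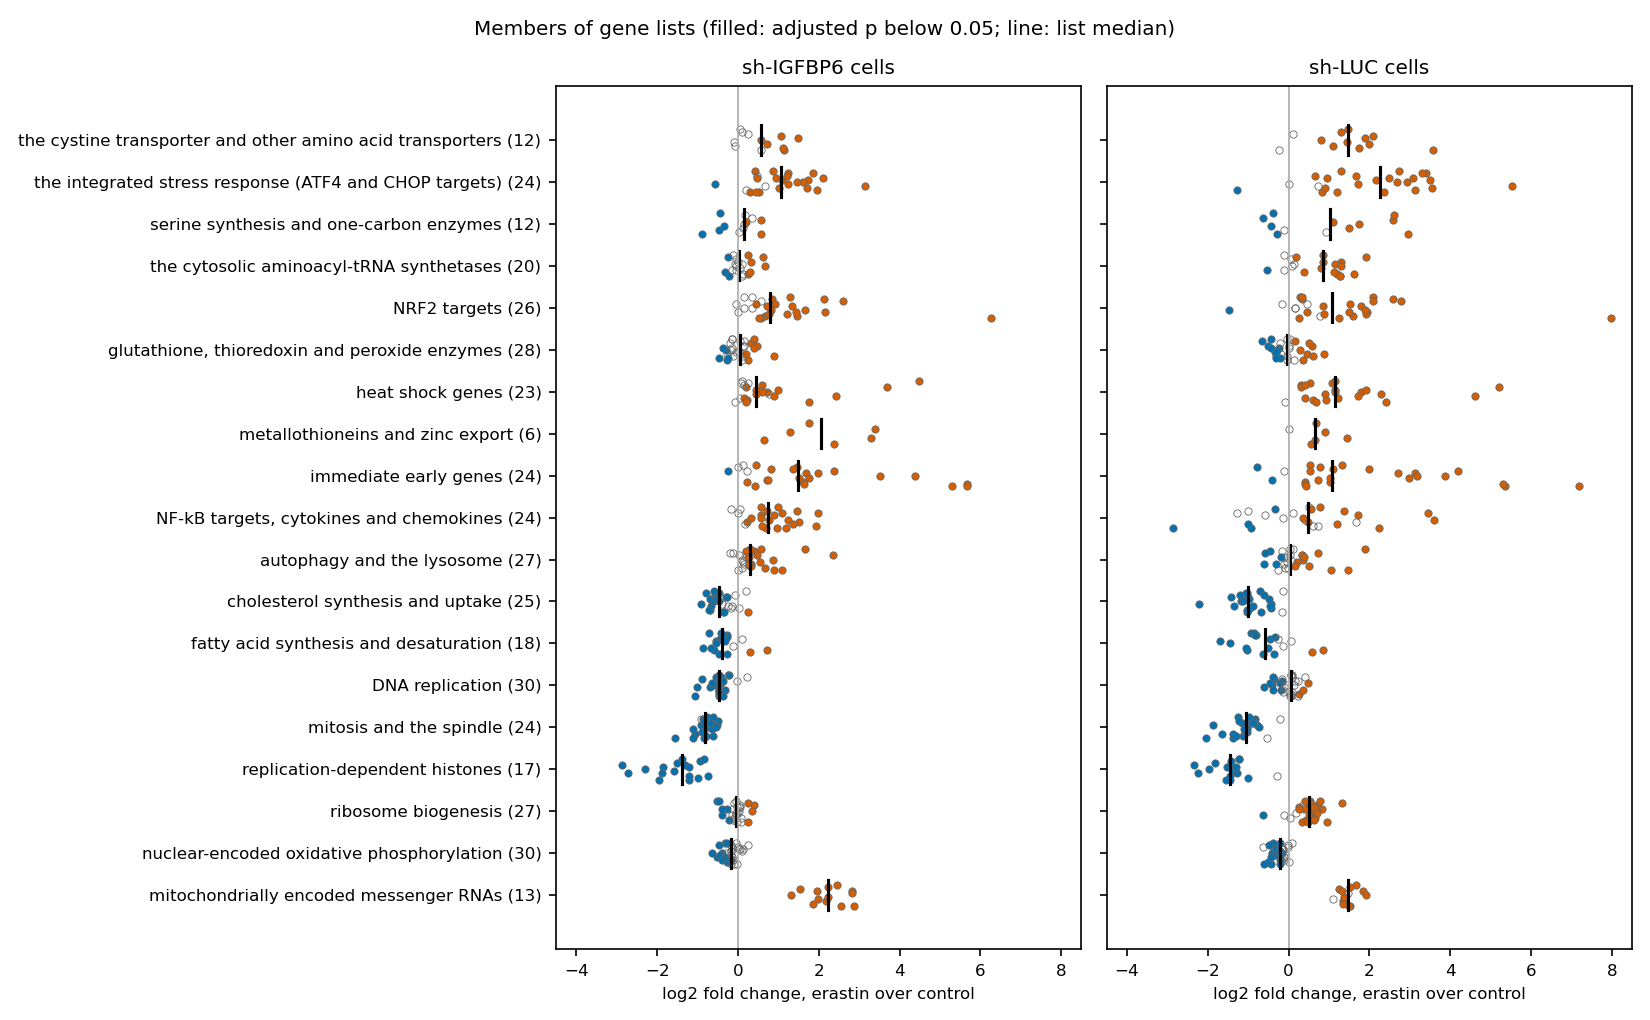
Each point is the log2 fold change of 1 member of a gene list, erastin over control, in sh-IGFBP6 (left) and sh-LUC cells (right), filled orange or blue where it rose or fell at an adjusted p below 0.05, with the list median as a black line and the number of members tested in brackets. Stress-response lists lie to the right of 0 in both lines and histone, mitosis and lipid synthesis lists to the left, while tRNA synthetase and ribosome biogenesis lists sit near 0 in sh-IGFBP6 cells (medians 0.02 and -0.04) and above it in sh-LUC cells (0.85 and 0.51).

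Motifs known for regulators of these gene groups were searched, on both strands, in the 250 bases before the RefSeq start (GRCh38.p14) of the members of each list that had a promoter entry; 27305 promoters in the table served as the reference. The following stretches are shown because they lie before genes that carry the response, with the matched letters in capitals and 25 bases on either side (for PLK1 fewer after the match, where the window ends). They read 5′ to 3′ on the gene's own strand.
ATF3, chr1:212565191-212565248, plus strand, a match to TGATGNAA, the core of the element bound by ATF4 with C/EBP partners: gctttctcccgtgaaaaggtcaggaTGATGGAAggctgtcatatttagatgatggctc
CHAC1, chr15:40953237-40953294, plus strand, the same core on the opposite strand: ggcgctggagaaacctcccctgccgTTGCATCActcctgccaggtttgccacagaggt
ASNS, chr7:97872444-97872501, minus strand, the same core: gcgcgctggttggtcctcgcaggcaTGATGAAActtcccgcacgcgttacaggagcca
GCLM, chr1:93909431-93909489, minus strand, TGACNNNGC, the antioxidant response element core bound by NRF2, on the opposite strand: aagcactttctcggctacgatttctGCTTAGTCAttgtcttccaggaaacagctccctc
TXNRD1, chr12:104215655-104215713, plus strand, the same core: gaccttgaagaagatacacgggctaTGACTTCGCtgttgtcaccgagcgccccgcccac
HSPA1A, chr6:31815412-31815469, plus strand, GAANNTTC, the heat shock element core bound by HSF1: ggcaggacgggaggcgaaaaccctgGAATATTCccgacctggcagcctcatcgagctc
EGR1, chr5:138465371-138465430, plus strand, a CArG box, the element of serum response factor: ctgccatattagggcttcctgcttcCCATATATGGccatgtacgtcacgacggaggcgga
PLK1, chr16:23678835-23678888, plus strand, TTTGAA, the cell cycle genes homology region: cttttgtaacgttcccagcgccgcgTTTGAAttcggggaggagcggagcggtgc
H2BC11, chr6:27132810-27132867, minus strand, ATTTGCAT, the octamer: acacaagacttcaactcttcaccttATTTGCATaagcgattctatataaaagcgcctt

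Of heat shock genes with a promoter entry, 10 of 22 held GAANNTTC (45.5%), against 5.85% of all promoters. The octamer ATTTGCAT was found before 7 of 15 histone genes (46.7%, against 1.66%); these are 5 distinct positions, since H2AC11 and H2BC11 share one and H2AC6 and H2BC4 another in divergent promoters. TTTGAA stood before 12 of 21 mitotic genes (57.1%, against 13.6%). CCAAT stood before 16 of those 21 (76.2%, against 33%). For TGATGNAA the counts were 3 of 23 integrated stress response genes (ATF3, CHAC1 and ASNS, 13%), 1 of 11 amino acid transporter genes (9.09%), 1 of 7 serine and one-carbon genes (14.3%) and 2 of 16 tRNA synthetase genes (12.5%), against 3.19%. TGACNNNGC was found before 4 of 22 NRF2 target genes (18.2%, against 11%) and TCACNCCAC, a sterol element, before 1 of 18 cholesterol genes (5.56%, against 0.875%). Immediate early genes held a CArG box in 2 of 19 cases (EGR1 and SRF, 10.5%, against 1.14%) and the cyclic AMP element TGACGTCA in 2 of 19 (JUND and DUSP1, 10.5%, against 1.77%). The metal response core, searched as TGCNCNC, stood before 3 of 4 metallothionein and zinc genes (75%) but also before 48.4% of all promoters. Among the 11008 promoters of genes tested, the share was higher for TGCNCNC (56%), TGACNNNGC (12.1%), TGACGTCA (2.91%) and CCAAT (35.1%). For the other motifs it was lower than among all promoters. CArG boxes lay before EGR1, which rose, and before SRF, which fell. Matches also lay before genes that changed little. Among these were AARS1 (log2 0.10) and MTHFD1L (0.16) with TGATGNAA, PGD (-0.04) with TGACNNNGC and DNAJB6 (0.09) with GAANNTTC. These matches describe the letters in a window and are not shown to be bound.

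The target of erastin and its partner were both higher after treatment. SLC7A11, the transport subunit of system xc- (chromosome 4, 138164097 to 138242349, minus strand, GRCh38), went from 216.5, 267.3 and 221.1 CPM to 543.1, 497.2 and 555.0 CPM. The groups did not overlap, and the log2 fold change was 1.15 ± 0.06 SE (adjusted p = 2.6e-31). SLC3A2, the heavy chain that carries it to the membrane, rose from 159.0, 187.3 and 180.1 to 363.9, 357.0 and 436.1 CPM (1.06, adjusted p = 4.2e-31). Of the 12 transporters tested in this list, 6 rose and 0 fell, with a median log2 fold change of 0.56; in sh-LUC cells 10 rose and 0 fell, with a median of 1.46. The leucine carrier SLC7A5 (0.71), the alanine and serine carrier SLC1A4 (1.48), the glycine carrier SLC6A9 (1.11) and the glutamine carrier SLC38A2 (0.56) made up the other rises. SLC1A5, SLC7A1 and SLC43A1, which rose in sh-LUC cells at 1.09, 1.46 and 1.45, stood at -0.07, 0.04 and -0.10 in sh-IGFBP6 cells and did not pass the test there.

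Genes of the integrated stress response rose together: 20 of 24 tested rose, 1 fell and 3 were not called, with a median of 1.06. The same list in sh-LUC cells had 21 rises and 1 fall, with a median of 2.27. ATF3, a stress-induced transcription factor, went from 5.969, 6.222 and 4.867 to 45.01, 56.66 and 63.43 CPM (log2 3.14, adjusted p = 9.7e-37). PPP1R15A, which reverses the phosphorylation of eIF2α, rose from 160.5, 171.4 and 180.8 to 640.7, 677.9 and 701.7 CPM (1.96, adjusted p = 5.4e-51). All erastin libraries exceeded all vehicle libraries for both. The transcript of ATF4 itself rose less, from 184.1, 242.2 and 200.1 to 310.4, 287.0 and 313.2 CPM (0.51, adjusted p = 1.6e-10), and DDIT3, which encodes CHOP, rose from 13.51, 18.67 and 10.76 to 26.02, 29.31 and 55.50 CPM (0.94, adjusted p = 2.0e-07). DDIT3 lies opposite MARS1 on the other strand, and SLC7A11 opposite SLC7A11-AS1; with no strand setting stated for the counting, reads of such pairs cannot be told apart (52 of the 194 genes named by rule overlap a tested gene on the opposite strand). CHAC1, an enzyme that degrades glutathione and is often used as a marker of cystine shortage, was low throughout: 2.199, 6.623 and 1.025 CPM in vehicle and 15.61, 7.438 and 7.928 CPM in erastin libraries. Its log2 fold change was 1.74 ± 0.49 SE (adjusted p = 0.0166), and the call was lost without control replicate 1 (1.55, adjusted p = 0.0580), without erastin replicate 1 (1.02, adjusted p = 0.206) and in a fit of the 6 libraries alone (1.74, adjusted p = 0.106). Further rises were those of GDF15, a secreted stress cytokine (2.10), CTH, which makes cysteine from cystathionine (1.87), KLHL24 (1.72) and ASNS, asparagine synthetase (1.01). RAB32, a small GTPase, fell from 23.88, 24.28 and 23.31 to 15.05, 17.94 and 7.928 CPM (-0.57, adjusted p = 0.00115); that call was lost without erastin replicate 1 (-0.48, adjusted p = 0.0615).

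**Figure D3:**
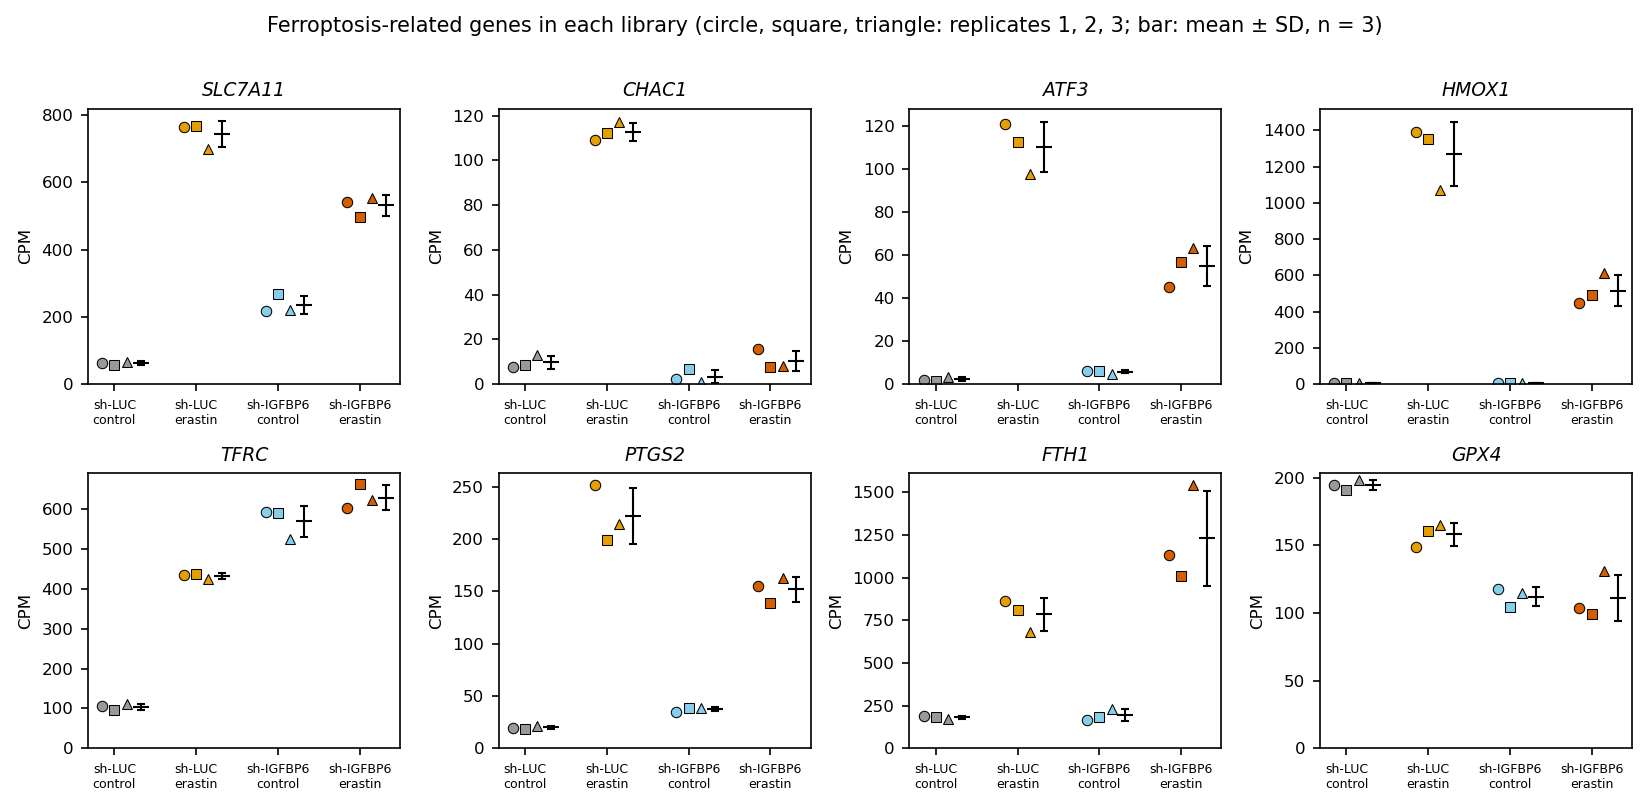
CPM in each library of the 4 groups for 8 genes tied to ferroptosis, with replicates as circle, square and triangle and the mean ± SD as a bar beside them. SLC7A11, ATF3, HMOX1, PTGS2 and FTH1 were higher in every sh-IGFBP6 erastin library than in any sh-IGFBP6 vehicle library, and GPX4 groups overlapped at 99.32 to 130.8 CPM with erastin and 104.6 to 117.5 CPM without.

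Serine synthesis and tRNA charging genes include many known ATF4 targets. Of 12 serine and one-carbon genes, 3 rose, 4 fell and 5 were not called. PHGDH, which opens the serine pathway, went from 36.44, 41.75 and 34.58 to 55.84, 56.00 and 55.50 CPM (log2 0.56, adjusted p = 8.6e-06), and PSAT1, the next enzyme, from 157.7, 192.3 and 152.2 to 266.4, 234.1 and 206.1 CPM (0.56, adjusted p = 1.2e-10). SHMT2, the mitochondrial serine hydroxymethyltransferase, rose by 0.20. The falls included TYMS, thymidylate synthase (-0.89), MTHFD1 (-0.48) and SHMT1 (-0.45). Of 20 cytosolic aminoacyl-tRNA synthetases, 6 rose and 3 fell, with a median of 0.02, against 14 rises and 1 fall in sh-LUC cells; the share of falls is close to the 14.2% of all genes tested, and library size alone gave 5 falls. WARS1 (0.67), GARS1 (0.61), CARS1 (0.32) and TARS1 (0.30) were higher in every erastin library than in any vehicle library, while VARS1 (-0.24) and MARS1 (-0.22) were lower in every one. The MARS1 call was lost without control replicate 2 (adjusted p = 0.0925) or erastin replicate 2 (adjusted p = 0.158).

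NRF2 targets rose in 19 of 26 cases and fell in 0, with a median log2 fold change of 0.79. HMOX1, heme oxygenase, which frees iron from heme (chromosome 22, 35380361 to 35394214, plus strand), had the largest rise of the comparison. It went from 5.027, 7.225 and 6.148 CPM to 445.3, 489.4 and 610.5 CPM, a ratio of means of 83.98 and a log2 fold change of 6.26 ± 0.16 SE (adjusted p = 1.3e-16). GCLM, the modifier subunit of the enzyme that starts glutathione synthesis, rose from 52.47, 52.38 and 69.93 to 254.3, 274.3 and 218.0 CPM (2.16, adjusted p = 4.6e-37), and its catalytic partner GCLC rose by 1.29. TXNRD1, thioredoxin reductase, rose from 512.7, 510.2 and 546.6 to 1280, 1399 and 1332 CPM (1.35, adjusted p = 2.5e-42). SQSTM1, the autophagy receptor p62, rose from 252.0, 251.1 and 266.9 to 764.1, 821.2 and 895.9 CPM (1.66, adjusted p = 6.5e-49). For these 4 genes the groups were far apart. The pentose phosphate enzymes PGD (-0.04), TALDO1 (-0.01) and TKT (0.14) did not pass the test. In sh-LUC cells 20 of the 26 rose and 1 fell, with a median of 1.07. Among 28 glutathione, thioredoxin and peroxide enzymes, 7 rose and 5 fell, with glutathione reductase GSR at 0.47, glutaredoxin GLRX at 0.41 and the thioredoxin-binding TXNIP at 0.89, and glutathione synthetase GSS at -0.28 and the mitochondrial peroxiredoxin PRDX3 at -0.48. Of all genes tested, 14.6% rose and 14.2% fell. Without erastin replicate 1 the 7 rises became 4, and the 5 falls became 3 without control replicate 1, control replicate 3 or erastin replicate 2. Scaling by library size alone gave 4 rises and 9 falls.

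Iron storage genes rose while most other iron genes did not. FTH1, ferritin heavy chain, went from 167.5, 183.4 and 231.8 to 1134, 1011 and 1542 CPM (log2 2.59 ± 0.16 SE, adjusted p = 2.2e-08), and FTL, the light chain, from 1481, 1403 and 1516 to 3756, 3951 and 4424 CPM (1.46, adjusted p = 4.0e-47). Both have processed pseudogenes, which may take part of their reads. Transferrin receptor TFRC, which brings iron into the cell (chromosome 3, 196027183 to 196082189, minus strand), read 593.1, 590.3 and 523.6 CPM in vehicle and 601.9, 661.5 and 622.4 CPM in erastin libraries. Its log2 fold change of 0.15 ± 0.06 SE lay at the threshold, with an adjusted p of 0.0517 with all libraries and 0.0486 without erastin replicate 3. Of 21 iron and heme genes, 5 rose and 3 fell, and the share of falls was close to the 14.2% of all genes tested. Besides the ferritin genes, HMOX1 (6.26), the mitochondrial iron importer SLC25A37 (0.42) and the zinc and iron carrier SLC39A14 (0.39) rose. The falls were FBXL5, the iron-sensing ubiquitin ligase subunit (-0.40), SLC11A2 (-0.30) and STEAP3 (-0.22). The 3 falls became 1 without control replicate 2 or erastin replicate 2.

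The transcripts of GPX4, which reduces lipid peroxides, and ACSL4 did not pass the test. GPX4 read 117.5, 104.6 and 114.5 CPM in vehicle and 103.7, 99.32 and 130.8 CPM in erastin libraries (log2 -0.12 ± 0.08 SE, adjusted p = 0.272). ACSL4, which loads polyunsaturated fatty acids for membrane lipids, read 156.1, 151.7 and 127.8 and then 130.0, 135.4 and 150.6 CPM (-0.12 ± 0.07 SE, adjusted p = 0.224). In both cases the groups overlapped, although library-size scaling alone would call them lower (GPX4 at -0.21, adjusted p = 0.0377; ACSL4 at -0.21, adjusted p = 0.0246), as would leaving out control replicate 3 for ACSL4 (-0.21, adjusted p = 0.0410). Of 19 genes listed as suppressors, 2 rose and 7 fell, the rises at a share below the 14.6% of all genes tested. The rises were AIFM2, which encodes the quinone reductase FSP1 (27.33, 30.31 and 31.25 to 59.08, 52.72 and 75.32 CPM, log2 0.93, adjusted p = 2.9e-13), and TXNRD1. The falls were MBOAT1 (-0.66), SCD (-0.55), FANCD2 (-0.54), DHCR7 (-0.46), SEPHS2 (-0.43), VKORC1L1 (-0.33) and ACSL3 (-0.18). The place of DHCR7 among suppressors is doubtful, and the role of no member was tested here. Of 19 drivers, 5 rose and 2 fell, the falls at a share below the 14.2% of all genes tested. SAT1, which acetylates spermidine and spermine (groups far apart at 21.99, 24.08 and 21.77 against 94.39, 130.8 and 95.14 CPM), rose by 2.27 ± 0.11 SE (adjusted p = 6.6e-36). ALOXE3, an epidermal lipoxygenase, rose from 1.571, 1.204 and 1.025 to 10.97, 8.969 and 23.79 CPM (3.06, adjusted p = 2.3e-13). PLTP (0.42), KEAP1 (0.29) and ZEB1 (0.29) rose less, and VDAC3 (-0.41) and PEBP1 (-0.37) fell. The 5 rises became 3 without erastin replicate 1.

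Heat shock genes rose in 16 of 23 cases and fell in 0, with a median of 0.44; in sh-LUC cells 22 of 23 rose, with a median of 1.14. HSPA1A, the inducible HSP70, went from 8.797, 8.028 and 8.965 to 103.4, 115.3 and 126.9 CPM (log2 3.68, adjusted p = 1.7e-29). HSPA1B encodes a near-identical protein, so the division of reads between the pair is uncertain; it rose by 2.42. DNAJB1, an HSP70 co-chaperone, rose from 96.76, 82.09 and 83.50 to 288.6, 293.6 and 297.3 CPM (1.75, adjusted p = 5.7e-39). The abundant HSP90AA1 rose from 2126, 2121 and 2176 to 3262, 3484 and 3841 CPM (0.71, adjusted p = 2.1e-19) and HSPH1 by 0.99. The transcript of HSF1 was at -0.08 and did not pass the test.

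Metallothioneins, small zinc- and copper-binding proteins, and zinc export genes all rose: 6 of 6 tested, with a median of 2.06, against 5 of 6 and a median of 0.66 in sh-LUC cells. MT1X went from 9.111, 8.831 and 7.941 to 74.97, 95.82 and 99.11 CPM (log2 3.30, adjusted p = 7.1e-39), MT1E from 61.89, 58.00 and 66.60 to 278.7, 372.1 and 277.5 CPM (2.37, adjusted p = 1.1e-33) and MT2A from 208.6, 216.0 and 267.9 to 764.9, 803.5 and 773.0 CPM (1.76, adjusted p = 1.3e-11). MT1F rose by 3.38, the zinc exporter SLC30A1 by 1.30 and MTF1, the metal-sensing transcription factor, by 0.65. Every erastin library exceeded every vehicle library for MT1X, MT1E, MT2A and SLC30A1. These genes form a family of close copies, and the split of reads among them is uncertain.

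Immediate early genes, which growth signals and stress switch on without new protein synthesis, rose in 20 of 24 cases with 1 fall and a median of 1.48, against 21 rises and 2 falls with a median of 1.07 in sh-LUC cells. FOS went from 12.88, 9.433 and 9.221 to 389.8, 443.6 and 273.5 CPM (log2 5.29, adjusted p = 3.7e-58). EGR1, a zinc finger factor (chromosome 5, 138465490 to 138469315, plus strand), rose from 58.12, 60.61 and 60.45 to 1196, 1220 and 1447 CPM (4.39, adjusted p = 1.3e-16), so that it was 21.56 times its vehicle mean. ARC (5.67), the nuclear receptor NR4A1 (5.66) and ZFP36, which destabilises cytokine messenger RNAs (3.51), rose with it, and all 5 were above every vehicle library in every erastin library. DUSP8, a phosphatase of stress kinases, rose from 0.3142, 0 and 1.025 to 13.08, 17.72 and 31.71 CPM (5.14, adjusted p = 2.9e-22). DUSP6, a phosphatase of ERK, was at 0.00. SRF was the member that fell (-0.24, adjusted p = 0.00707), a call lost without control replicate 3 or erastin replicate 2.

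NF-kB targets, cytokines and chemokines rose in 20 of 24 cases and fell in 0, with a median of 0.74; in sh-LUC cells 10 rose and 4 fell, with a median of 0.49. Without erastin replicate 1 the 20 rises became 13. PTGS2, cyclooxygenase 2, widely used as a transcript marker of ferroptosis, went from 35.19, 38.94 and 38.42 to 154.9, 138.9 and 162.5 CPM (log2 1.97, adjusted p = 1.4e-40). The neutrophil chemokine CXCL8 rose from 36.76, 41.75 and 30.74 to 85.67, 82.47 and 71.36 CPM (1.19, adjusted p = 2.5e-20), the monocyte chemokine CCL2 from 40.84, 38.33 and 43.29 to 92.98, 78.97 and 75.32 CPM (1.09, adjusted p = 1.0e-18), and IL1B from 77.28, 85.10 and 72.75 to 166.5, 123.2 and 134.8 CPM (0.89, adjusted p = 1.0e-16). None of the erastin libraries overlapped the vehicle libraries for these 4 genes. CSF2 (1.94), IL6 (1.37) and NFKBIA, the inhibitor of NF-kB (0.69), also rose.

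Genes of DNA synthesis and division fell. Replication-dependent histone genes, whose transcripts accumulate in S phase, fell in 17 of 17 cases, 14 of them at least 2-fold, with a median of -1.39. H3C12 went from 144.5, 133.5 and 169.8 to 22.79, 16.19 and 27.75 CPM (log2 -2.87, adjusted p = 1.0e-32), H2AC4 from 146.1, 124.0 and 149.8 to 23.63, 18.59 and 7.928 CPM (-2.71, adjusted p = 6.5e-49), and H3C2 from 487.3, 458.2 and 465.9 to 161.3, 156.6 and 134.8 CPM (-1.58, adjusted p = 6.0e-47). Histone genes are close copies, so values of single members are uncertain. In sh-LUC cells 16 of 17 fell, with a median of -1.45. Mitosis and spindle genes fell in 23 of 24 cases (median -0.81), against 22 of 24 in sh-LUC cells (median -1.06). AURKA, a spindle kinase, went from 155.8, 138.7 and 159.3 to 77.65, 68.47 and 47.57 CPM (-1.05, adjusted p = 2.5e-23), the kinesin KIF20A from 171.8, 162.6 and 177.0 to 85.24, 70.66 and 67.39 CPM (-1.12, adjusted p = 2.1e-25) and the proliferation marker MKI67 from 929.6, 891.7 and 976.7 to 551.8, 496.4 and 483.6 CPM (-0.85, adjusted p = 8.0e-25). All vehicle libraries were above all erastin libraries for each of them.

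DNA replication genes fell in 26 of 30 cases and rose in 0, with a median of -0.46; in sh-LUC cells 9 fell and 3 rose, with a median of 0.05. POLE, the leading-strand polymerase, went from 325.8, 321.1 and 341.2 to 212.7, 192.3 and 198.2 CPM (log2 -0.70, adjusted p = 3.0e-18), and the difference from its sh-LUC response was -0.60 (adjusted p = 1.7e-08). MCM3, a subunit of the replicative helicase, fell by 0.49 on the log2 scale, with a difference of -0.34 (adjusted p = 6.1e-04). For the flap nuclease FEN1 (-0.64) and the ribonucleotide reductase subunit RRM1 (-0.48) the differences were -0.17 (adjusted p = 0.230) and -0.11 (adjusted p = 0.413). None of these differences reached the 2-fold that a called difference between responses also needed. By that rule 1 of the 30 genes responded more negatively in sh-IGFBP6 cells and 0 more positively. The difference between the lines in the count of falling genes was not tested. CDKN1A, the p21 inhibitor of cyclin-dependent kinases, rose from 50.89, 48.17 and 46.62 to 200.4, 226.9 and 190.3 CPM (2.13, adjusted p = 1.9e-48), and CDKN1C, p57, from 3.142, 4.215 and 4.867 to 50.64, 54.03 and 47.57 CPM (3.64, adjusted p = 6.9e-40).

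Lipid synthesis genes were lower. Of 25 cholesterol synthesis and uptake genes, 17 fell and 1 rose, with a median of -0.46, against 23 falls and 0 rises with a median of -1.0 in sh-LUC cells. FDPS, which makes farnesyl diphosphate, fell from 76.97, 73.86 and 63.52 to 40.79, 42.00 and 35.68 CPM (log2 -0.79, adjusted p = 6.7e-12), and ACAT2, a cytosolic thiolase, from 102.4, 103.6 and 94.78 to 59.50, 64.75 and 47.57 CPM (-0.71, adjusted p = 5.8e-12). Every erastin library was below every vehicle library for both. INSIG1, which retains the sterol sensor in the endoplasmic reticulum, was the member that rose (0.26, adjusted p = 0.00477), a call lost without control replicate 3 (0.15, adjusted p = 0.195) or erastin replicate 2 (0.15, adjusted p = 0.281). Of 18 fatty acid synthesis and desaturation genes, 14 fell and 2 rose, with a median of -0.40. FASN, fatty acid synthase, fell from 1811, 1736 and 1517 to 1039, 1045 and 987.1 CPM (-0.71, adjusted p = 4.4e-20), and FADS2, a desaturase that makes polyunsaturated fatty acids, from 570.5, 576.0 and 530.0 to 388.5, 400.3 and 253.7 CPM (-0.55, adjusted p = 8.8e-12). The rises were ME1, malic enzyme (0.73), and FADS3 (0.30), the latter lost without 4 of the 6 libraries taken singly. The lipid droplet coat protein PLIN2 rose from 32.04, 44.76 and 39.19 to 108.9, 113.5 and 122.9 CPM (1.5, adjusted p = 2.3e-31).

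The 13 messenger RNAs of the mitochondrial genome were higher in every erastin library, and most of all in the library rich in mitochondrial ribosomal RNA. They summed to 19470 to 25220 CPM in vehicle libraries and to 56310, 35400 and 180300 CPM in erastin replicates 1, 2 and 3. MT-ND4, a subunit of complex I, read 2614, 2801 and 3651 CPM in vehicle and 10040, 6304 and 33750 CPM in erastin libraries (log2 2.45 ± 0.51 SE, adjusted p = 0.00248), and 1.43 (adjusted p = 0.00288) without replicate 3. All 13 rose with all libraries (median 2.22) and without replicate 3 (median 1.30), and 11 rose in sh-LUC cells (median 1.46). In a fit of the 6 sh-IGFBP6 libraries alone 0 of the 13 passed (MT-ND4 at an adjusted p of 0.0849), and without replicate 3 in addition 2 did. Nuclear-encoded oxidative phosphorylation genes fell in 12 of 30 cases and rose in 0 (median -0.18), with CYC1, cytochrome c1, at -0.63; without erastin replicate 2 the 12 falls became 7. Among 7 nuclear-retained RNAs, MALAT1 rose from 3754, 4240 and 3647 to 8097, 8907 and 9637 CPM (1.19, adjusted p = 5.1e-35) and NEAT1, the scaffold of paraspeckles, from 253.8, 311.3 and 274.8 to 666.2, 739.4 and 888.0 CPM (1.39, adjusted p = 2.9e-06). KCNQ1OT1 rose by 1.38, and NKTR (-0.34) and OIP5-AS1 (-0.24) fell. The OIP5-AS1 call was lost without control replicate 1 (adjusted p = 0.0858), control replicate 2 (0.155), erastin replicate 1 (0.171) or erastin replicate 2 (0.0655), with DESeq2 (0.0529) and without a filter (0.234). The part of these RNAs in the other results was not tested.

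The responses of the lines were compared directly by the interaction of line and erastin. At an adjusted p below 0.05 and a difference of at least 2-fold, 502 genes (3.28% of those tested) responded more positively in sh-IGFBP6 cells and 447 (2.92%) more negatively. Amino acid and stress genes stood among the latter: 7 of the 12 transporters, 12 of the 24 integrated stress response genes, 5 of the 12 serine and one-carbon genes, 5 of the 20 tRNA synthetases and 7 of the 23 heat shock genes. SLC7A11 rose in sh-LUC cells from 62.54, 55.88 and 66.84 to 764.3, 768.2 and 698.9 CPM, so its log2 fold change of 1.15 in sh-IGFBP6 cells was smaller by 2.43 (difference -2.43 ± 0.10 SE, adjusted p = 2.6e-41). The untreated sh-IGFBP6 cells stood higher (216.5 to 267.3 CPM) and the treated ones lower (497.2 to 555.0 CPM) than their sh-LUC counterparts. TFRC showed a higher level before treatment too: 106.1, 95.34 and 110.0 CPM in sh-LUC vehicle cells against 523.6 to 593.1 CPM in sh-IGFBP6 vehicle cells, and 435.3, 436.9 and 424.3 CPM after erastin in sh-LUC cells (difference -1.91, adjusted p = 3.3e-39). PHGDH (-2.39, adjusted p = 1.0e-16), PSAT1 (-2.02, adjusted p = 8.3e-31), ATF3 (-2.41, adjusted p = 4.2e-09) and HMOX1 (-1.72, adjusted p = 0.00223) also responded less. PHGDH and PSAT1 had higher vehicle means in sh-IGFBP6 cells (37.59 and 167.4 CPM) than in sh-LUC cells (4.271 and 50.18 CPM). With erastin the PHGDH mean was still higher in sh-IGFBP6 cells (55.78 against 34.01 CPM). The PSAT1 mean was then lower (235.5 against 300.1 CPM), as were those of ATF3 (55.03 against 110.5 CPM) and HMOX1 (515.1 against 1270 CPM). For CHAC1 the difference of -1.76 did not pass the test (adjusted p = 0.0702), although it read 109.1, 112.1 and 117.2 CPM in sh-LUC erastin libraries.

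**Figure D4:**
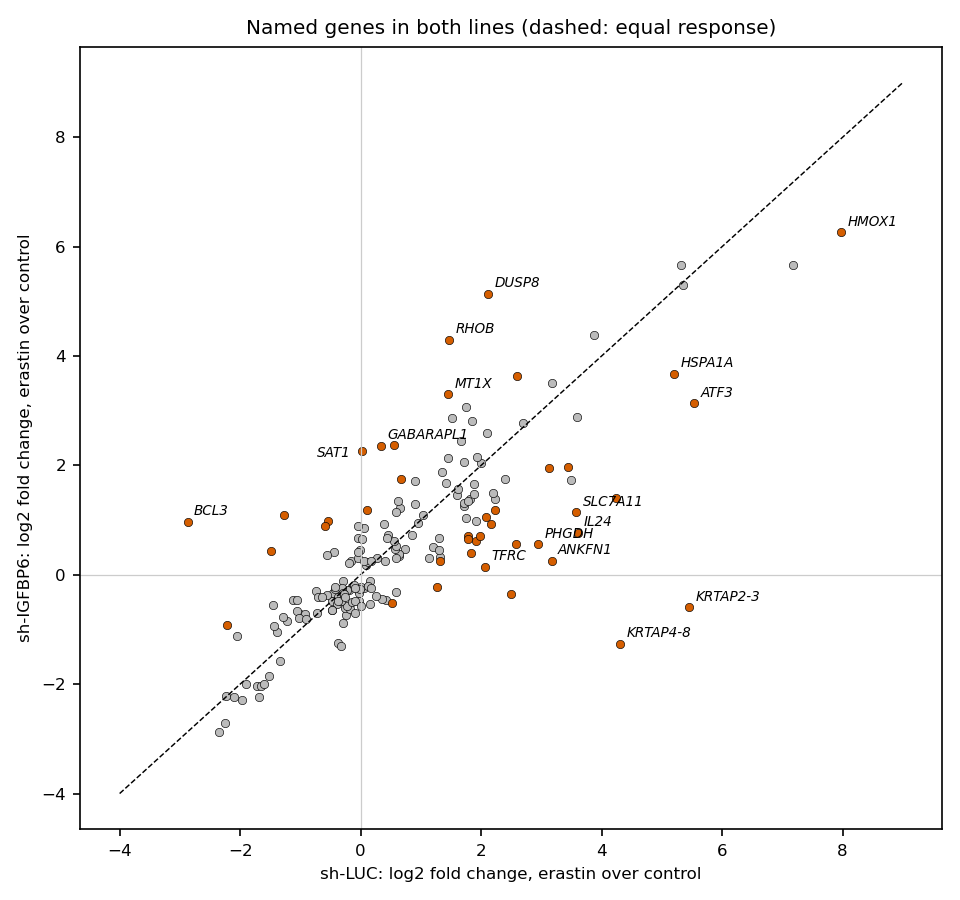
Each point is a named gene, with its log2 fold change (erastin over control) in sh-LUC cells on the horizontal and in sh-IGFBP6 cells on the vertical axis; orange marks an interaction at an adjusted p below 0.05 and at least 2-fold, and the dashed line marks equal responses. Genes with at most 3 counts in a sh-IGFBP6 group are left out. SLC7A11 and TFRC lie below the line by 2.43 and 1.91, and SAT1 and RHOB above it by 2.24 and 2.84.

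Other genes responded more strongly upward in sh-IGFBP6 cells. SAT1 had a log2 fold change of 2.27 in sh-IGFBP6 cells and 0.03 in sh-LUC cells (difference 2.24 ± 0.14 SE, adjusted p = 2.9e-26). GABARAPL1, an autophagosome protein of the LC3 family, rose from 14.77, 15.05 and 10.50 to 65.27, 72.19 and 95.14 CPM, with responses of 2.36 and 0.34 (difference 2.02, adjusted p = 6.6e-20). RHOB, a small GTPase induced by stress, rose from 7.226, 6.422 and 5.891 to 130.5, 128.8 and 99.11 CPM in sh-IGFBP6 cells; in sh-LUC cells it went from 116.5, 118.1 and 106.9 to 345.7, 314.9 and 282.2 CPM (responses 4.30 and 1.47, difference 2.84, adjusted p = 8.3e-31). Its vehicle level was thus lower in sh-IGFBP6 cells, and its treated level too. MALAT1 responded at 1.19 and 0.10 (difference 1.10, adjusted p = 7.2e-22). Vehicle means were also lower in sh-IGFBP6 than in sh-LUC cells for SAT1 (22.62 against 80.02 CPM), GABARAPL1 (13.44 against 38.44 CPM) and MALAT1 (3880 against 9516 CPM). With erastin the means of SAT1 (106.8 against 82.81 CPM) and GABARAPL1 (77.53 against 48.47 CPM) were higher in sh-IGFBP6 cells. That of MALAT1 was still lower (8880 against 10170 CPM). The metallothioneins MT1X (1.85), MT1E (1.81) and MT2A (1.09) all had positive differences, although they rose in sh-LUC cells too, by 1.45, 0.56 and 0.67. Their vehicle means were 8.627, 62.16 and 230.8 CPM in sh-IGFBP6 cells against 14.10, 68.08 and 435.6 CPM in sh-LUC cells. With erastin they were 89.97, 309.4 and 780.5 CPM against 39.64, 101.5 and 693.0 CPM. BCL3, a nuclear IκB protein, rose from 5.027, 4.616 and 4.098 to 9.143, 8.532 and 11.89 CPM in sh-IGFBP6 cells and fell from 65.51, 65.66 and 55.74 to 8.089, 8.666 and 8.589 CPM in sh-LUC cells (difference 3.84, adjusted p = 7.9e-24).

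Several genes with a large negative difference were low or at 0 in untreated sh-LUC cells. KRTAP2-3, a keratin-associated protein gene, read 10.37, 9.834 and 6.660 CPM in sh-IGFBP6 vehicle and 6.893, 4.375 and 7.928 CPM in erastin libraries, a change that did not pass the test, while sh-LUC cells went from 0.3722, 0 and 0 to 5.342, 6.989 and 4.294 CPM (difference -6.05, adjusted p = 7.6e-12). With a single count in the 3 sh-LUC vehicle libraries, the size of that fitted difference depends on the prior count. KRTAP4-8 fell in sh-IGFBP6 cells from 22.31, 27.50 and 23.31 to 10.41, 10.50 and 3.964 CPM (-1.26, adjusted p = 1.2e-09) and was below 1 CPM in every sh-LUC library of the comparison. IL24, a cytokine of the IL-10 family, rose from 49.95, 50.38 and 45.59 to 78.77, 87.72 and 87.21 CPM in sh-IGFBP6 cells, and from 0.7445, 1.263 and 0.2522 to 10.84, 8.387 and 7.784 CPM in sh-LUC cells (difference -2.83, adjusted p = 2.6e-08). On the CPM scale the IL24 gain was larger in sh-IGFBP6 cells, and on the log2 scale it was smaller.

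**Figure D5:**
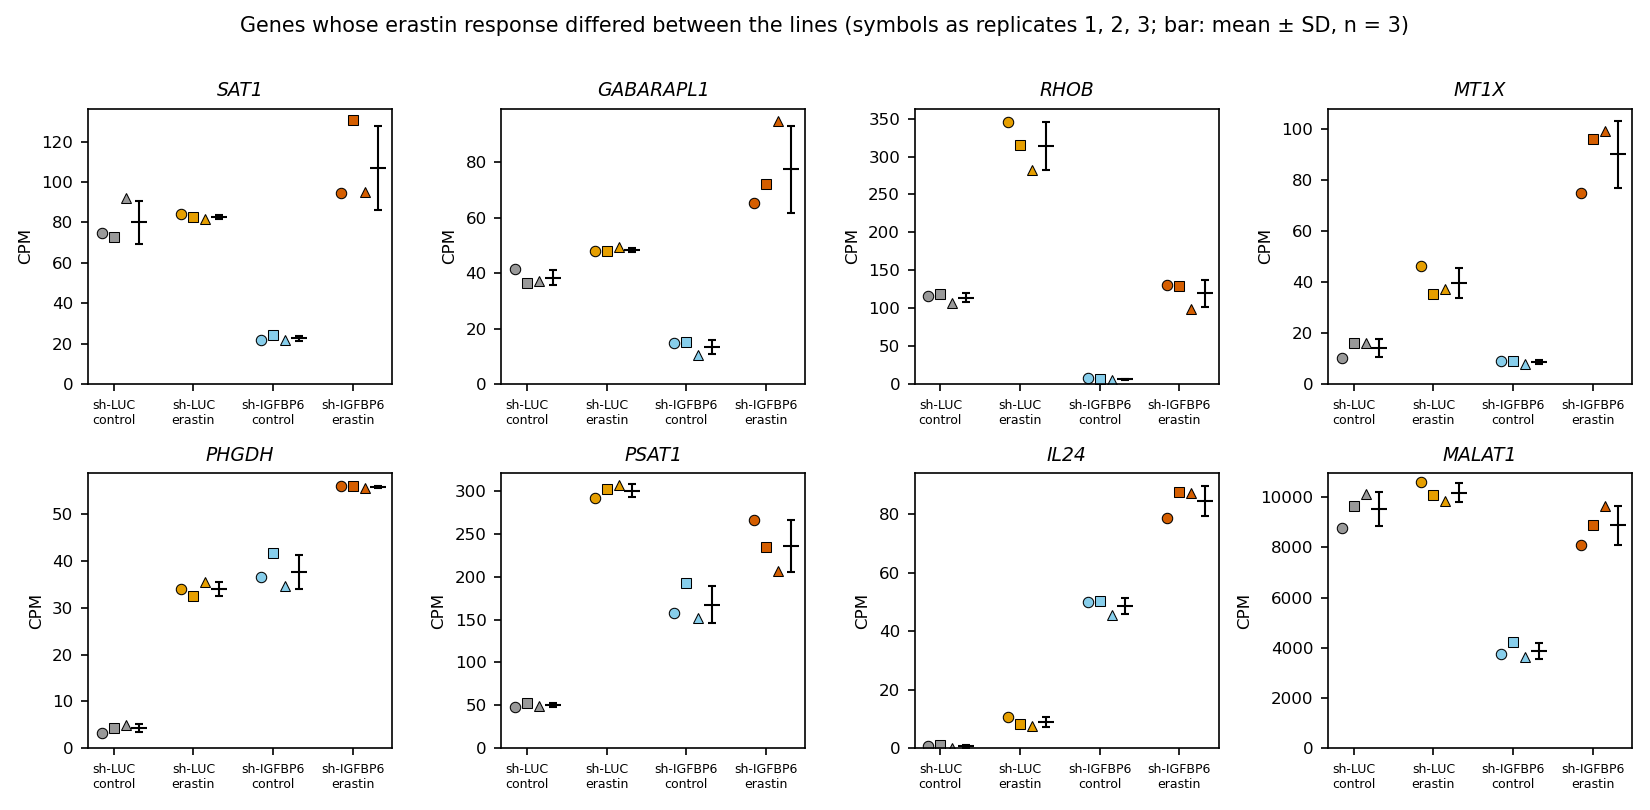
CPM in each library of the 4 groups for 8 genes whose erastin response differed between the lines at an adjusted p below 0.05 and at least 2-fold, with replicates as circle, square and triangle and the mean ± SD as a bar. The sh-IGFBP6 groups lie farther apart for SAT1, GABARAPL1 and MALAT1, with log2 responses of 2.27, 2.36 and 1.19 against 0.03, 0.34 and 0.10 in sh-LUC cells, while PHGDH and PSAT1 rise further in sh-LUC cells.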

How the data were processed

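RNA was taken from 18 bulk samples in 6 groups of 3. Per the labels' protocols, libraries were MGIEasy, after ribosomal RNA depletion. The submitters' processing notes name cutadapt 4.4, STAR 2.7.7a, featureCounts and GRCh38; for annotation and strand setting, nothing was stated in the sources used here. The authors deposited raw counts per gene. Lines naming no gene held 0.000280% to 0.0108% of counts.

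From these counts, MT-RNR1 and MT-RNR2 were removed, CPM was computed on TMM-scaled library sizes, and genes were filtered with filterByExpr (minimum count 10, minimum total 15). edgeR 4.0.16 (limma 3.58.1, R 4.3.3) fitted 1 coefficient per group over all 18 libraries (12 residual degrees of freedom) with robust quasi-likelihood tests. Every adjusted p is edgeR's, Benjamini-Hochberg over the 15294 genes tested, called below 0.05; a difference between responses also needed 2-fold. The procedure was tested on simulated data. Gene coordinates are those of GENCODE 29 on GRCh38.

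Named genes were fixed key genes, the 10 largest non-overlapping rises and falls with a mean of at least 5 CPM, up to 4 called members of each of 39 lists by p and up to 2 against the list's majority, and the 6 largest differences each way. Other list members that complete a count were named after their values were seen. Some genes named by this rule are not reported here. Members and lists were chosen with earlier results of these data known. Alternatives were other scalings, no filter, DESeq2 1.42.0, fewer libraries, a replicate block and leaving out each library.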

Additional observations from a re-analysis of the deposited data

Results flagged for a closer look

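In sh-IGFBP6 erastin replicate 3, MT-RNR1 and MT-RNR2, which were left out of the tests, took 54.38% of counts, above the level of every control library.

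For 45 of the named genes reported here the response to erastin differed between the lines by the interaction test; each value is the log2 response of sh-IGFBP6 cells minus that of sh-LUC cells. Smaller or more negative responses among amino acid and stress genes were those of SLC7A11 (-2.43), ATF3 (-2.41), PHGDH (-2.39), PSAT1 (-2.02), MARS1 (-1.49), GARS1 (-1.31), SLC7A5 (-1.27), ERN1 (-1.25), PPP1R15A (-1.17) and SLC3A2 (-1.02). Among iron, heme and chaperone genes they were TFRC (-1.91), HMOX1 (-1.72), HSPA1A (-1.52) and HSP90AA1 (-1.08). PTGS2 (-1.48), ODC1 (-1.44), PFKFB3 (-1.13), RRP12 (-1.06), CXCL8 (-1.04) and NOP56 (-1.03) also had negative values. The erastin means of ODC1, RRP12 and CXCL8 were nevertheless higher in sh-IGFBP6 cells (652.4, 308.9 and 79.83 CPM) than in sh-LUC cells (106.0, 142.5 and 42.06 CPM). Those of PTGS2, PFKFB3 and NOP56 were lower. The 6 named for the largest negative differences were KRTAP2-3 (-6.05), KRTAP4-8 (-5.57), ANKFN1 (-2.91), ENSG00000287979 (-2.85), IL24 (-2.83) and MARK2P8 (-2.83). KRTAP4-8 had 0 counts and KRTAP2-3 a single count in the 3 sh-LUC vehicle libraries, so the sizes of their fitted differences depend on the prior count and are no bounds. The MARK2P8 difference did not pass without sh-IGFBP6 control replicate 2 (-2.48, adjusted p = 0.0923).

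More positive responses of sh-IGFBP6 cells were those of BCL3 (3.84), DUSP8 (3.02), RHOB (2.84), SAT1 (2.24), GABARAPL1 (2.02), IFI44L (1.90), MT1X (1.85), MT1E (1.81), CLDN4 (1.52), MALAT1 (1.10) and MT2A (1.09). CCL2 (2.37), IL1B (1.48) and CDKN1C (1.04) depended on single libraries: the CCL2 difference was 1.28 (adjusted p = 0.522) and the IL1B difference 1.10 (adjusted p = 0.146) without sh-LUC control replicate 1. CCL2 also missed the threshold without sh-LUC erastin replicate 2 (adjusted p = 0.0825), sh-LUC erastin replicate 3 (adjusted p = 0.0872) or sh-IGFBP6 erastin replicate 1 (adjusted p = 0.0573). Means in sh-LUC vehicle and erastin libraries were very low for CCL2 (0.6856 and 0.2439 CPM), IL1B (2.274 and 1.418 CPM) and IFI44L (3.752 and 1.377 CPM). The sizes of their differences therefore rest on few sh-LUC counts. The CDKN1C difference was 0.70 (adjusted p = 0.288) without sh-LUC control replicate 3 and 0.89 (adjusted p = 0.0665) without sh-IGFBP6 control replicate 1.

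The other 5 genes had almost no counts in sh-IGFBP6 vehicle libraries, so their fitted values depend on the prior count. In sh-LUC cells the mean of ADORA1 fell with erastin from 26.78 to 5.960 CPM and that of P2RY6 from 23.50 to 3.231 CPM. The changes of ADORA1 and P2RY6 in sh-IGFBP6 cells did not pass the test (adjusted p = 0.220 and 0.349). COL6A2 means in sh-LUC cells were 52.81 CPM in vehicle and 50.03 CPM in erastin libraries. ADORA1 (5.10) had 0 counts in vehicle and 2 in erastin libraries, which gives no fold, and the difference passed in few of the fits with a library left out. COL6A2 (4.69) had 0 and 7 counts, at least 2.36-fold higher with erastin against a floor of 3 counts over the group, while the exact 95% counting interval of the ratio begins lower, at 1.46; its difference was lost without sh-IGFBP6 control replicate 2 (adjusted p = 0.0523) or erastin replicate 2 (adjusted p = 0.0707). P2RY6 (4.60) had 1 and 4 counts, a ratio of 4.05 with a 95% counting interval of 0.4 to 199, lost without sh-IGFBP6 erastin replicate 2 (adjusted p = 0.0749). TOX2 (4.13) had 1 and 9 counts, a ratio of 9.11 with an interval of 1.26 to 399, lost without sh-IGFBP6 erastin replicate 1 (2.34, adjusted p = 0.454). RRAD (3.98) had 1 and 62 counts, a ratio of 62.7 with an interval of 10.8 to 2.52e+03. The intervals are exact binomial and cover counting error only.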

How the results depend on the processing

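Among the named genes, no call reversed its direction under the alternatives run. The balance of all calls was less stable. Rises outnumbered falls in the main fit, while falls outnumbered rises with DESeq2 (1617 falls) and with library size alone, among others. With library size alone the balance of the glutathione and proteasome lists turned to falls as well. DESeq2 called 1464 rises, 110 falls of at least 2-fold and 283 more negative differences of at least 2-fold, against 2228, 186 and 447 with edgeR. Without a filter on low counts 1383 genes fell, against 2174, with 40440 genes tested. With each sh-IGFBP6 library left out in turn, the calls numbered 3265 to 4364, rises 1548 to 2228, falls 1568 to 2136, at least 2-fold rises 385 to 438 and at least 2-fold falls 171 to 200. With each of the 12 libraries of both lines left out, more positive differences numbered 403 to 517 and more negative ones 421 to 519. Library size alone as scaling gave 1554 rises and 3177 falls, and called KRTAP2-3 lower (-0.68, adjusted p = 0.0253). No pairing by replicate number was seen: deviations of same-numbered samples correlated at -0.01, 0.05 and 0.03. The shallow erastin replicate 3 adds counting noise to this check, so it cannot exclude pairing. A replicate block gave 4391 calls and, among the named genes, moved only KRTAP2-3 across the threshold (-0.72, adjusted p = 0.0201). One alternative, the 5 libraries of this comparison without erastin replicate 3, was chosen after seeing the data and called 4533 of 13907 genes. Depth limits erastin replicate 3 most: 9763 tested genes had under 10 counts there.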

Other observations

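Autophagy and lysosome genes rose in 18 of 27 cases and fell in 0, with a median log2 fold change of 0.31, against 11 rises and 5 falls in sh-LUC cells. MAP1LC3B, which encodes LC3B, went from 60.63, 63.22 and 55.58 to 121.8, 132.8 and 146.7 CPM (1.09, adjusted p = 6.3e-23), and the lysosomal protease CTSD rose by 0.86. Endoplasmic reticulum folding genes rose in 10 of 23 cases and fell in 0, among them the co-chaperone DNAJB9 (1.67), HERPUD1 (1.31) and HSPA5, which encodes BiP (0.53). Genes listed as p53 targets rose in 8 of 21 cases and fell in 1 (FDXR, -0.65, not called without erastin replicate 1 at an adjusted p of 0.0772), with BBC3, the death protein PUMA, at 1.22 and GADD45A at 1.04. The part of p53 in these changes was not tested. Apoptosis genes rose in 6 of 19 cases and fell in 2, BCL2L1 at -0.73 and BCL2 at -0.31, the latter lost without each of 5 of the 6 libraries. Hypoxia and glycolysis genes rose in 11 of 28 cases and fell in 3, with the peptide hormone gene ADM at 2.77 and the glucose carrier SLC2A3 at 2.07. In the p53, apoptosis and hypoxia lists the shares of falls lay below the 14.2% of all genes tested. Matrix and mesenchymal genes rose in 16 of 29 cases and fell in 5: the transcription factor SNAI1 rose by 2.88, and COL5A2 (-1.24) and CCN1 (-0.54) fell.

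Polyamine genes rose in 4 of 13 cases and fell in 4: ODC1, which starts polyamine synthesis, rose by 0.40 and spermidine synthase SRM fell by 0.44 on the log2 scale. Interferon-stimulated genes fell in 3 of 24 cases, a share below the 14.2% of all genes tested (IFIT1 at -0.94, IFIT3 at -0.80 and ISG15 at -0.57) and rose in 1 (IFI44L at 0.43); without control replicate 2 the falls numbered 5. Of 9 insulin-like growth factor genes, IRS2 (1.15) and IGF2R (0.17) rose and IGFBP4 (-0.29) and IRS1 (-0.25) fell; the IGF2R call was lost without each of 5 libraries and the IGFBP4 call without erastin replicate 2 (-0.27, adjusted p = 0.0626). Ribosome biogenesis genes rose in 4 and fell in 6 of 27 cases, the rises at a share close to the 14.6% of all genes tested. The rises became 1 without erastin replicate 1. In sh-LUC cells, where 21.3% of all genes tested rose and 24.4% fell, the list had 22 rises and 1 fall. Ribosomal protein genes rose in 14 of 32 cases and fell in 2; the rises numbered 5 or 6 without control replicate 2 or 3 or erastin replicate 1 or 2, and 2 with library size alone as scaling. Proteasome genes rose in 3 and fell in 2 of 31 cases, both below the shares of all genes tested (14.6% and 14.2%). The rises became 1 without control replicate 3 or erastin replicate 1, and library size alone gave 1 rise and 6 falls. Fatty acid oxidation genes rose in 4 and fell in 2 of 20 cases, with ANGPTL4, an inhibitor of lipoprotein lipase, at 2.05, and lipid droplet genes rose in 4 and fell in 4 of 15 cases. The share of falls among fatty acid oxidation genes lay below the 14.2% of all genes tested. Of the 8 mesenchymal markers, VIM (0.26) and ITGB1 (0.22) rose and CAV1 (-0.60) and AXL (-0.28) fell. With library size alone as scaling neither rise passed (adjusted p = 0.0677 for VIM and 0.210 for ITGB1), and ITGB1 was also lost without control replicate 1 (adjusted p = 0.0585). That scaling further raised the number of falls to 6 among fatty acid oxidation, 6 among interferon, 6 among hypoxia and glycolysis, 5 among apoptosis and 4 among p53 genes.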
